A study of Mus musculus with 6 samples.

Results

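The genes described here are 8 mouse genes whose products belong to some of the COMPASS family H3K4 methyltransferase complexes and not to others: Men1, Psip1, Cxxc1, Wdr82, Bod1l, Paxip1, Pagr1a and Ncoa6. They were taken by name, with no threshold on a measured value, and they are 8 of 21938 protein-coding genes of the GENCODE vM21 annotation outside the mitochondrial chromosome. For each gene, the peaks that overlapped the gene body or the 5 kb upstream of it were collected from a list of H3K4me3 peaks and a list of HA-ASH2L peaks. H3K4me3 and HA-ASH2L had been mapped by CUT&RUN, a method in which an antibody-guided nuclease cuts out the DNA around its target and the freed fragments are sequenced. The cells were E14, a mouse embryonic stem cell line, kept in medium with serum and LIF, and 48 h of doxycycline preceded every experiment, in parental cells too. The 6 samples formed 3 groups of 2: HA-ASH2L E14 cells with an antibody to H3K4me3 (100000 cells in the labels), HA-ASH2L E14 cells with an antibody to the HA tag (1000000 cells), and parental E14 cells, labelled WT, with the HA antibody (1000000 cells). The labels call the HA-ASH2L genotype a knock-in, whereas the methods of the study describe a doxycycline-inducible transgene brought in with a PiggyBac vector and cells grown from picked single colonies. The methods do not say whether ASH2L was still made from the cells' own gene. Signal from the parental E14 cells was not used here.

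Methylation of lysine 4 of histone H3 is laid down by 6 related enzymes, MLL1 to MLL4, SET1A and SET1B, each of which works in a complex with the shared subunits WDR5, RBBP5, ASH2L and DPY30. Trimethylation, H3K4me3, marks the promoters of active and poised genes and is densest around CpG-rich start sites. The partner proteins set the complexes apart. Menin, the product of Men1, joins MLL1 and MLL2 and, with the chromatin reader LEDGF (the product of Psip1), holds them on their target genes. CFP1 (the product of Cxxc1) binds unmethylated CpG, WDR82 links SET1A and SET1B to initiating RNA polymerase II, and BOD1L is a partner of SET1A. PTIP (the product of Paxip1), PA1 (the product of Pagr1a) and the nuclear receptor coactivator NCOA6 are found with MLL3 and MLL4.

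The H3K4me3 list held 59927 peaks and the ASH2L list 2464 peaks, called on 27328071 and 25677963 tags that remained after redundant tags were removed. Peaks had a median of 113 tags for H3K4me3 and 32 tags for ASH2L, and they contained 45.7% and 0.398% of the tags. Peaks were called on merged duplicates, so each value below is 1 value for the pair of samples. The lists do not give the spread between duplicates, and no difference was tested. The study reports that its duplicates correlated well. The 95% intervals of tags are exact Poisson intervals and cover counting error only. The lists gave an incomplete view of stem cell genes: of 8 embryonic stem cell markers, Esrrb, Zfp42 and Tfcp2l1 had an H3K4me3 peak at the promoter, whereas Pou5f1, Nanog, Sox2, Tdgf1 and Dppa5a had none in the list as analysed here. Of the markers of other cell types, 3 of 6 for fibroblasts, 0 of 4 for hepatocytes and 1 of 3 for erythroid cells had one. None of these markers had an ASH2L promoter peak. The absence of a peak is therefore not read as the absence of the mark, and its cause was not tested.

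H3K4me3 lay over the promoter of 7 of the 8 partner genes, Men1, Psip1, Cxxc1, Bod1l, Paxip1, Pagr1a and Ncoa6, beside 68.4% of all protein-coding genes. A promoter was the stretch from 1000 bp upstream to 100 bp downstream of any annotated start site. The gene without a peak was Wdr82. In all, 9 H3K4me3 peaks with 5428 tags fell in the 8 regions. Of the genes, 5 had 1 peak, and Men1 and Ncoa6 had 2 each. For comparison, 76.2% of all protein-coding genes had an H3K4me3 peak in the gene body or 5 kb upstream, so 7 of 8 genes lay above either share by fewer than 2 genes. When only peaks at or over the list's median fold enrichment of 6.46 were counted, 2 of 8 genes, Men1 and Bod1l, kept a promoter peak, beside 36.4% of all protein-coding genes, a gap of under 1 gene. No ASH2L peak fell in any of the 8 regions. Promoter peaks of ASH2L were found at 7.67% of protein-coding genes and peaks in the same kind of region at 10.4%, so a count of 0 among 8 genes is not a result about these genes. The nearest ASH2L peak lay 43.8 kb from the main start site of Ncoa6, 73.7 kb from that of Pagr1a, 92.7 kb from that of Men1 and 96.0 kb from that of Cxxc1. For the other genes it lay 106409 bp away (Psip1), 206082 bp away (Wdr82), 289518 bp away (Paxip1) and 2103566 bp away (Bod1l).

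**Figure D1:**
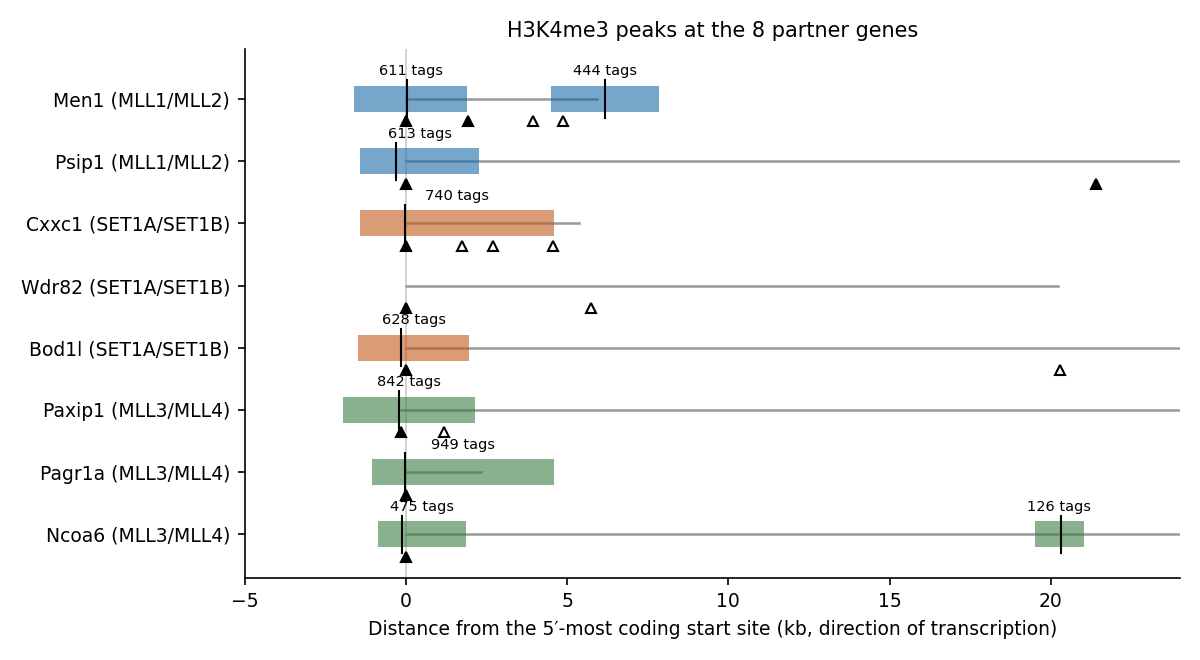
H3K4me3 peaks at the 8 partner genes, placed by distance in kb from the 5′-most coding start site in the direction of transcription. Boxes are peaks coloured by complex, with their tags; black bars are summits, grey lines gene bodies cut at the plot's edge, filled triangles start site groups with a coding transcript and open triangles groups without one. The main peaks of 7 genes cover the start site, Wdr82 has none, a second peak of 444 tags overlaps the 3′ end of Men1, with its summit past the gene, and one of 126 tags lies inside Ncoa6.

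The promoter sequences of 4 genes are shown, because they frame the pattern of start sites with and without a listed peak: Wdr82, which had no peak although its promoter is rich in CpG, Ncoa6 at its 5′-most start, which had a peak, and at its downstream start, which had none, Paxip1, whose peak was the densest, and Men1, whose first start is the poorest in CpG among the starts with a peak and a sequence here, which leaves out Psip1 and Cxxc1. Each runs 5′ to 3′ on the strand of the gene, from 250 bases before the start site to the 50 bases that begin at it, in mm10 coordinates. Capitals mark CpG dinucleotides. The sequences come from the RefSeq promoter table on GRCm38.p6, except that of the 5′-most Ncoa6 start, which was read from the same assembly.
Wdr82, chr9:106170679-106170978, plus strand, no peak: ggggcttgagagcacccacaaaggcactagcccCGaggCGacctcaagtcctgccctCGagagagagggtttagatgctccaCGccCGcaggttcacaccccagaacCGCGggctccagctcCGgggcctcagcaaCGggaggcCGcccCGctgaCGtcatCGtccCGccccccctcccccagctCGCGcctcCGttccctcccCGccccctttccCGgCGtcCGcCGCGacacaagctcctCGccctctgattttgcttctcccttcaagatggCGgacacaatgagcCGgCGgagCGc
Ncoa6 5′-most start, chr2:155473845-155474144, minus strand, peak: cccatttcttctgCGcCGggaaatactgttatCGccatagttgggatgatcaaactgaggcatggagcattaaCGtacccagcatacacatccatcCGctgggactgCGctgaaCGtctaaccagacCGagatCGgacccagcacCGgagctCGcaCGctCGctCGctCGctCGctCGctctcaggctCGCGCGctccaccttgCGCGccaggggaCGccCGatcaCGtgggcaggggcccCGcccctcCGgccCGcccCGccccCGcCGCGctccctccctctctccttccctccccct
Ncoa6 downstream start, chr2:155440734-155441033, minus strand, no peak: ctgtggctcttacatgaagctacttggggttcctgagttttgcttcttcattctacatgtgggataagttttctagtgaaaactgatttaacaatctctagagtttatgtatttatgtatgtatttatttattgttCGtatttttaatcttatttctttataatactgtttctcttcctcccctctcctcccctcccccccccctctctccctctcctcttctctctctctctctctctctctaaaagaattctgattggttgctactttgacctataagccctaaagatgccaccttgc
Paxip1, chr5:27791501-27791800, minus strand, peak: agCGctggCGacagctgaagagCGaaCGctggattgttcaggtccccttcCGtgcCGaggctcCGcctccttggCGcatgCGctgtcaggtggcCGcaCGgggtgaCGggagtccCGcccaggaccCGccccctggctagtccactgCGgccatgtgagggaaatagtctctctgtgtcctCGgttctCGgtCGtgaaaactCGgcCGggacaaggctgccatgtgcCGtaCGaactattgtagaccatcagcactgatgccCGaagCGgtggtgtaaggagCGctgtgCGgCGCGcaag
Men1, chr19:6334729-6335028, plus strand, peak: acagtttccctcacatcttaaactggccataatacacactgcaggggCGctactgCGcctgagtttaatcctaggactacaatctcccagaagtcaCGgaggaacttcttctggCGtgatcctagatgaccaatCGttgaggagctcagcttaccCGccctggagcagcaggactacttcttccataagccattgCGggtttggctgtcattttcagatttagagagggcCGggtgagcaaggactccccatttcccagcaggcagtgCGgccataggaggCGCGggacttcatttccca

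Of the MLL1 and MLL2 partners, Men1 had 2 H3K4me3 peaks and Psip1 had 1, and their promoter peaks were alike in tags. Men1 (ENSMUSG00000024947.17, chromosome 19, 6334979 to 6340891, plus strand) encodes menin. Its promoter peak ran from 6333384 to 6336874, a length of 3491 bp, and held 611 tags (95% interval 564 to 661), or 175 tags per kb of peak. The summit lay 48 bp downstream of the start site, in the noncoding part of an exon. The fold enrichment at the summit over the background that the peak caller models was 7.11, the highest among the promoter peaks of these genes. The second peak, from 6339485 to 6342839, held 444 tags (404 to 487) over 3355 bp, or 132 tags per kb, with a fold enrichment of 6.12. It covered the 3′ end of Men1, and its summit lay 26 bp from the start site of Map4k2, a kinase gene on the same strand whose start lies 6156 bp downstream of the Men1 start. It also covered 1 annotated start of a Men1 transcript that is not classed as protein-coding, at 6339847. Tags of this peak cannot be divided between Map4k2 and Men1. Psip1 (ENSMUSG00000028484.16, chromosome 4, 83455680 to 83486459, minus strand) encodes LEDGF and its shorter form p52. Its single peak ran from 83484182 to 83487876, was 3695 bp long and held 613 tags (565 to 664), or 166 per kb. The summit lay 318 bp upstream of the start site, the farthest from the start among the 7 promoter peaks, and the fold enrichment was 4.98.

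Of the SET1A and SET1B partners, Cxxc1 and Bod1l had a promoter peak and Wdr82 had none. Cxxc1 (ENSMUSG00000024560.7, chromosome 18, 74216124 to 74221496, plus strand) encodes CFP1, the CpG-binding subunit. Its peak ran from 74214706 to 74220720 and, at 6015 bp, was the longest of the 9. It held 740 tags (688 to 795), or 123 per kb, with a fold enrichment of 5.68. The summit lay 39 bp upstream of the start site, and 4589 bp of the peak lay downstream of the start against 1425 bp upstream. Bod1l (ENSMUSG00000061755.10, chromosome 5, 41787538 to 41844315, minus strand) had a peak from 41842348 to 41845797, which was 3450 bp long and held 628 tags (580 to 679), or 182 per kb. Its fold enrichment was 6.95, its summit lay 147 bp upstream of the start site and its p-value score was 960.07. The score is the negative log10 of the peak caller's p-value multiplied by 10, with 50 at the cutoff, and that of Bod1l was the highest of the 9 peaks.

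Wdr82 (ENSMUSG00000020257.13, chromosome 9, 106170928 to 106191139, plus strand) encodes a WD-repeat subunit of both SET1 complexes. The list as analysed here held no H3K4me3 peak in its body or the 5 kb upstream of it. The nearest peak upstream, from 106158362 to 106160977, held 458 tags and ended 9951 bp before the start site. The nearest peak downstream, from 106191146 to 106192777, held 86 tags and began 7 bp after the end of the gene. Between them lay 30168 bp without a peak. The peak lists give no read depth between peaks, so the level of H3K4me3 at Wdr82 cannot be given. The promoter of Wdr82 shown above has 28 CpG in 300 bases. Of 3916 RefSeq promoters with at least as many, 229, or 5.85%, had no H3K4me3 peak. Why Wdr82 is among them was not tested.

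Of the MLL3 and MLL4 partners, all 3 had a promoter peak, and these included the highest and the lowest tag counts among the main peaks. Paxip1 (ENSMUSG00000002221.11, chromosome 5, 27740080 to 27791691, minus strand) encodes PTIP, a BRCT-domain protein that is also known from DNA repair. Its peak ran from 27789400 to 27793492, was 4093 bp long and held 842 tags (786 to 901). At 206 tags per kb (192 to 220) it was the densest of the 9 peaks. The fold enrichment was 5.77 and the summit lay 227 bp upstream of the coding start site. Pagr1a (ENSMUSG00000030680.6, chromosome 7, 127015033 to 127017352, minus strand) encodes PA1, the PTIP partner. Its peak ran from 127012743 to 127018404 and held 949 tags (890 to 1010) over 5662 bp, or 168 per kb, the highest tag count of the 9. The fold enrichment of this peak was 3.91 and its score 79.0, both the lowest of the 9. The peak covered the whole of the gene, which is 2320 bp long, and also start sites of Gm42742, which begins at the same base as Pagr1a, of Pagr1b, 868 bp downstream, and of Mvp, the major vault protein gene, 2731 bp downstream. All of them lie on the minus strand, and the 949 tags cannot be assigned to any of these genes alone. Among all protein-coding genes with a promoter peak, 19.2% shared the main one with a coding start site of another gene, and Pagr1a was 1 of 7 here.

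Ncoa6 (ENSMUSG00000038369.14, chromosome 2, 155390656 to 155473894, minus strand) encodes a coactivator of nuclear receptors and is the longest of the 8 genes. Its promoter peak, from 155472024 to 155474747, was the shortest among the main peaks, with 2724 bp and 475 tags (433 to 520), or 174 per kb. The fold enrichment was 5.13, the score 852.23, and the summit lay 106 bp upstream of the start site. A second peak lay inside the gene, from 155452872 to 155454389, with 1518 bp and 126 tags (105 to 150), or 83.0 per kb. Its fold enrichment of 9.61 was the highest of the 9 peaks and stood at the 87.0 percentile of all peaks of the list. The summit lay 20332 bp downstream of the 5′-most start in intron 1 of 2 transcripts of the gene, which have 16 and 10 exons. The peak held no annotated start site, as was the case for 69.4% of the peaks of the list, and the nearest start of any gene was 7330 bp away. The 200 bases around its summit have 4 CpG, marked in capitals, and none of them is repeat-masked. They are shown on the plus strand because this is the only peak of the 9 without an annotated start site.
Ncoa6 intronic summit, chr2:155453462-155453661, plus strand: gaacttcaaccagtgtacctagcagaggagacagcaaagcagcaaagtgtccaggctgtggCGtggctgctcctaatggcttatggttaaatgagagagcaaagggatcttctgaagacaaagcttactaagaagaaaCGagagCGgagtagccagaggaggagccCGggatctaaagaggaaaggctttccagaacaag

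Ranked by tags per kb of the main peak, the order was Paxip1 (206), Bod1l (182), Men1 (175), Ncoa6 (174), Pagr1a (168), Psip1 (166) and Cxxc1 (123). The counting intervals of neighbours in this order overlapped except for those of Psip1 (153 to 180) and Cxxc1 (114 to 132). The genes did not order by complex: the MLL3 and MLL4 partners held places 1, 4 and 5, the MLL1 and MLL2 partners places 3 and 6, and the SET1A and SET1B partners places 2 and 7. Raw tags were 611 and 613 for the MLL1 and MLL2 partners, 740 and 628 for the SET1A and SET1B partners with a peak, and 475, 842 and 949 for the MLL3 and MLL4 partners. With 2 or 3 genes for each pair of complexes, the differences between the groups of partners were not tested.

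**Figure D2:**
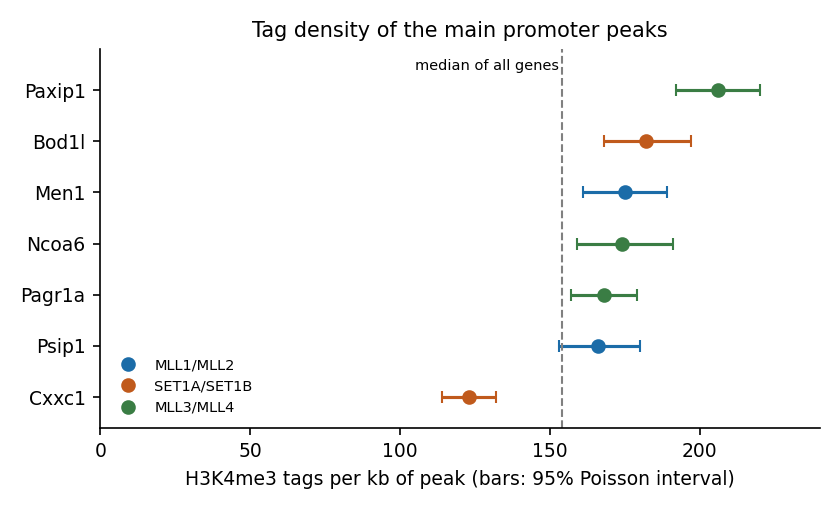
H3K4me3 tags per kb of the main promoter peak of the 7 genes with one, coloured by complex; bars are 95% exact Poisson intervals and the dashed line is the median of all protein-coding genes with a promoter peak, 154 tags per kb. Paxip1 (206) has the highest value, and Cxxc1 (123) is the only gene below the line.

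The partner genes were set among the main promoter peaks of all 15012 protein-coding genes that had one. Most of their peaks were longer, with more tags and lower fold enrichment, than the median of those genes. The median main peak was 3695 bp long with 628 tags for the 7 partner genes and 2943 bp long with 469 tags for all genes. Tags were above the median of all genes for 7 of 7, length and tags per kb for 6 of 7 each, fold enrichment for 2 of 7 and the p-value score for 3 of 7. The median of tags per kb was 174 against 154, that of fold enrichment 5.68 against 6.38 and that of the score 553.93 against 618.98. Fold enrichment fell with length over the longer peaks of the list. Its median was 6.62 at 2001 to 3000 bp, 5.58 at 3001 to 4000 bp and 4.76 at 4001 to 5000 bp. It was 4.2 at 5001 to 6000 bp and 3.73 above 6000 bp. Against their own length classes, Men1, Bod1l, Paxip1 and Cxxc1 were above the median, and Psip1, Pagr1a and Ncoa6 below. By tags, Pagr1a stood at the 92.7 percentile, Paxip1 at the 88.1, Cxxc1 at the 81.8 and Ncoa6 at the 51.1. By length, Cxxc1 stood at the 94.0 percentile and Pagr1a at the 92.1, whereas Ncoa6 stood at the 42.6. By tags per kb, Paxip1 was at the 95.1 percentile and Cxxc1 at the 22.7. The genes shared peaks in places, since the 15012 genes had 13497 distinct main peaks.

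**Figure D3:**
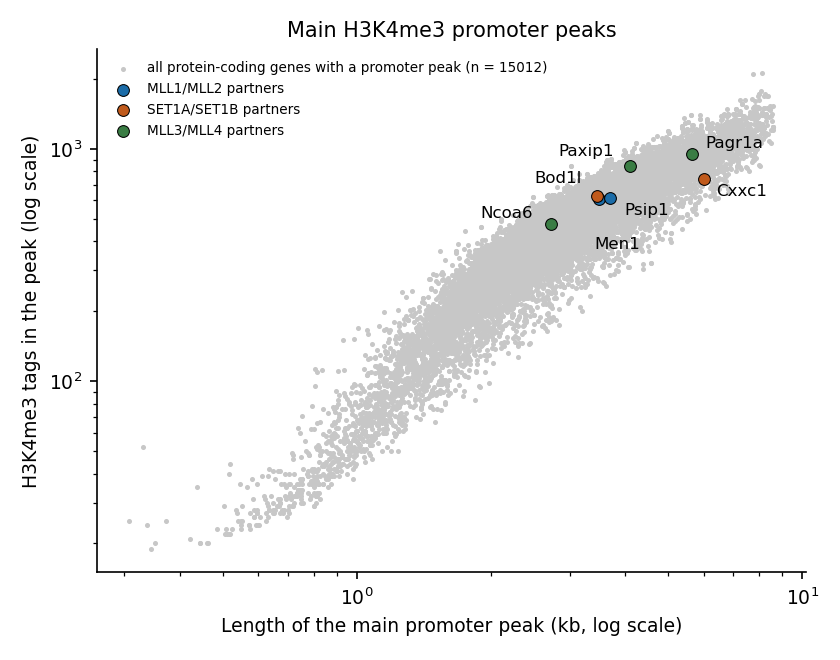
H3K4me3 tags against length in kb of the main promoter peak, both on log scales, for 15012 protein-coding genes (grey) and the 7 partner genes with one (coloured by complex). Pagr1a (949 tags, 5662 bp) lies highest among the partner genes, and Cxxc1 (740 tags, 6015 bp) lies farthest to the right and low for its length.

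The 2 longest partner peaks, those of Cxxc1 and Pagr1a, had the lowest scores of the 7 main peaks. Over the list, the median score was highest in the middle of the length range: it was 85.27 up to 1000 bp, 214.7 at 1001 to 2000 bp, 472.0 at 2001 to 3000 bp, 551.5 at 3001 to 4000 bp, 453.3 at 4001 to 5000 bp, 339.4 at 5001 to 6000 bp and 170.2 above 6000 bp, whereas median tags rose with each class, from 38 to 1017. Pagr1a, with 949 tags, had a score of 79.0, far below the median of its class, and stood at the 2.48 percentile of main promoter peaks. Cxxc1, at 6015 bp just inside the longest class, had a score of 198.21. This was above the median of that class (170.2) and below that of the class before it (339.4). The Cxxc1 score stood at the 11.1 percentile of main promoter peaks. Bod1l (960.07), Paxip1 (849.83) and Ncoa6 (852.23) were well above the medians of their classes, Men1 (553.93) was near it and Psip1 (486.16) was below it. The peak caller had no control library and took its background from up to 10000 bp around each peak in the same library. The part of that background in the scores was not tested. The low score of Pagr1a matters to the counts, because a minimum score of 100 removed its peak and left 6 of 8 genes with a promoter peak, beside 66.0% of all protein-coding genes.

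**Figure D4:**
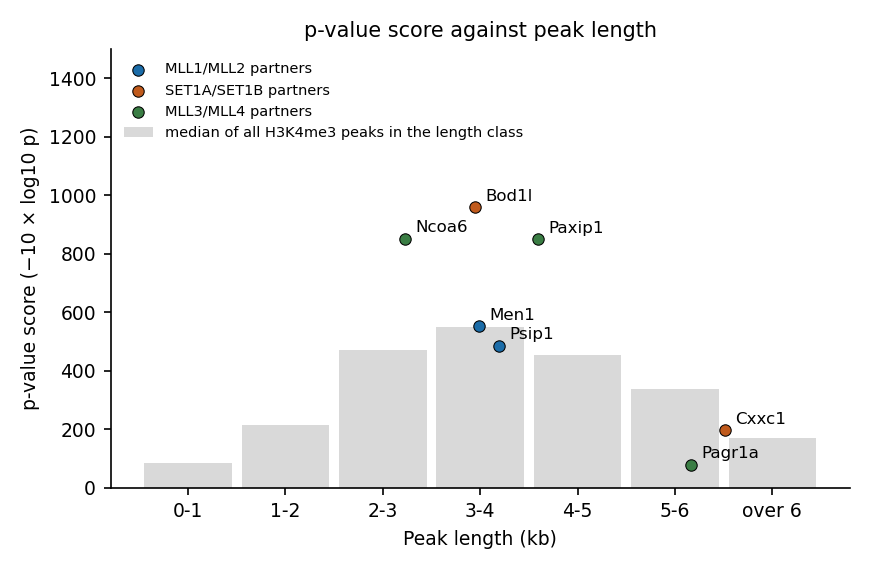
The p-value score (negative log10 p multiplied by 10) of the main H3K4me3 promoter peaks of the 7 genes with one against peak length in kb, with grey bars for the median of all 59927 H3K4me3 peaks in each length class. The median is highest in the class of 3 to 4 kb (551.5) and lower on both sides, with 85.27 in the shortest class and 170.2 above 6 kb, and Pagr1a (79.0) lies far below the bar of its class.

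The main peaks reached further downstream of the start site than upstream of it at 7 of 7 genes. This was also the case for 77.3% of 13121 protein-coding genes whose main peak contained the 5′-most coding start. The downstream part was longest for Pagr1a (4609 bp, against 1052 bp upstream) and Cxxc1 (4589 bp against 1425 bp) and closest to even for Paxip1 (2150 bp against 1942 bp) and Men1 (1895 bp against 1595 bp). The Pagr1a peak ran past the end of its gene and over the start of Mvp. The summit lay upstream of the start site at 6 of 7 genes, all but Men1, beside 44.3% of the same genes. These distances ran from 34 bp for Pagr1a to 318 bp for Psip1. The share of the gene body under H3K4me3 was highest for the short genes. It was 100% of Pagr1a, 85.6% of Cxxc1 and 55.9% of Men1, which are 2320, 5373 and 5913 bp long, and between 3.47% and 7.4% of Psip1, Bod1l, Paxip1 and Ncoa6, which are at least 30780 bp long. Wdr82, with 20212 bp, had no covered base. Under the promoter peak alone, without the second peaks, the share was 32.1% of Men1 and 2.25% of Ncoa6. The median over all protein-coding genes was 7.51%.

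Alternative promoters were counted as groups of annotated start sites, each group holding starts within 500 bp of the next. The 8 genes had 25 such groups. The 5′-most group was overlapped by an H3K4me3 peak at 7 of 8 genes, beside 62.7% of all protein-coding genes. Of 17 groups further downstream, 5 were overlapped, beside 22.7% of 30608 such groups at all protein-coding genes. These were 3 groups of Cxxc1 and 1 of Paxip1 inside the main peak, and the Men1 group in the peak at Map4k2, and none of the 5 had a transcript classed as protein-coding. The 3 downstream groups with such a transcript, at Men1, Psip1 and Ncoa6, were not overlapped, beside 32.7% overlapped of 12884 such groups at all protein-coding genes, so a count of 0 among 3 groups is not a result about these genes. The Men1 start at 6336910 lay 36 bp past the edge of the promoter peak. The Psip1 group, from 83464964 to 83465043, lay 19139 bp from the nearest peak. The Ncoa6 group, from 155440783 to 155440785, lay 33109 bp downstream of the 5′-most start and 12087 bp from the intronic peak. RefSeq start sites of the 8 genes were all in a peak except the same Ncoa6 start at 155440783 and the 2 of Wdr82. A start site group without a peak has no measured level here, as for Wdr82.

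CpG content differed between the Ncoa6 start with a peak and the one without, whereas Wdr82, without a listed peak, was as rich in CpG as Paxip1. The promoter of the 5′-most Ncoa6 start, with a peak, had 32 CpG in 300 bases, a GC share of 66.3% and a ratio of observed to expected CpG of 1.04. The downstream Ncoa6 start, without a peak, had 1 CpG, a GC share of 39.3% and a ratio of 0.0987. Wdr82 had 28 CpG, a GC share of 68.7% and a ratio of 0.837, close to the 28 CpG, 64.0% and 0.914 of the Paxip1 promoter. Bod1l had 25 CpG, Pagr1a 15 and the 3 RefSeq starts of Men1 11, 16 and 16. The median over 20150 RefSeq promoters of protein-coding genes was 14 CpG, with a GC share of 57.0% and a ratio of 0.588. Of those promoters, an H3K4me3 peak was present at 14.1% with 0 to 4 CpG, 55.0% with 5 to 9, 91.5% with 10 to 19 and 94.1% with 20 or more. Of the 8 genes, 6 had an entry in the RefSeq promoter table. Psip1 and Cxxc1 had none.

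**Figure D5:**
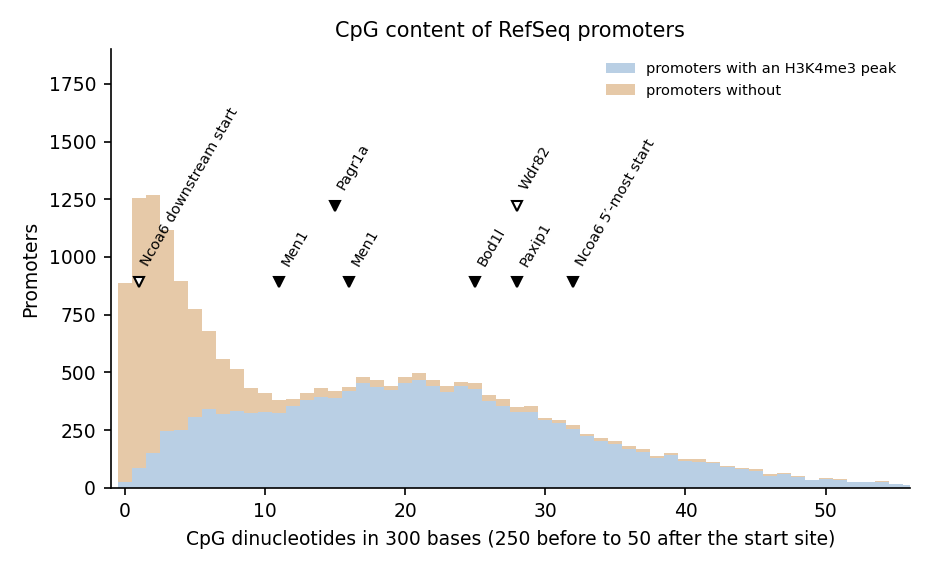
CpG dinucleotides in 300 bases of RefSeq promoters (x axis) against the number of promoters (y axis), stacked by presence (blue) or absence (tan) of an H3K4me3 promoter peak. Triangles mark the partner genes' promoters, filled with a peak and open without, at heights that carry no value; of the promoters without a listed peak, the downstream Ncoa6 start has 1 CpG and Wdr82 has 28.

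Short motifs were searched on both strands in the same windows, which cover 6 of the 8 genes and not Psip1 or Cxxc1. GGGCGG, the GC box of SP and KLF factors, occurred in the promoters of Wdr82, Bod1l, Men1 and Paxip1 and at the 5′-most start of Ncoa6, beside 47.8% of all promoters. CCAAT, the NF-Y box, occurred in those of Bod1l and Men1 and at the downstream Ncoa6 start, beside 37.8%. CGGAAG, which ETS factors recognize, occurred in those of Bod1l and Paxip1, beside 21.7%. CCGCCAT, a core of YY1 sites, occurred at Wdr82 alone among the 6 genes, beside 5.38% of all promoters. TCGCGAG occurred in none of the windows of the 6 genes, beside 2.68%. No motif contains another. A match describes the letters of the window and not a site of binding, and a motif that was not matched may lie outside the window.

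CpG content also differed between the promoter peak and the intronic peak of Ncoa6, both of which are in the list. The Ncoa6 promoter peak had 58.7 CpG per kb, the highest of the 9, and its intronic peak had 13.2, the lowest, beside a median of 19.5 over the peaks of the list. Psip1 (45.7 CpG per kb), Paxip1 (43.7), Men1 at the Map4k2 start (39.3), Cxxc1 (38.4) and Bod1l (35.9) followed, and Pagr1a (26.3) and the Men1 promoter peak (25.5) were the lowest of the main promoter peaks. GC shares ran from 45.9% for the Ncoa6 intronic peak to 58.7% for the peak at Map4k2, beside a median of 49.6%. Repeat-masked bases made up 30.1% of the Bod1l peak and 6.94% of the peak at Map4k2, with a median of 16.0% over the list.

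Of 14 other genes of the same complexes, 13 had an H3K4me3 promoter peak and 2 had an ASH2L promoter peak, beside 68.4% and 7.67% of all protein-coding genes. The 14 were the genes of the enzymes and of the shared subunits, and also Hcfc1, Hcfc2, Kdm6a and Bod1. With fold enrichment at or over the median, 4 of 14 kept an H3K4me3 promoter peak, beside 36.4% of all protein-coding genes. With a score of at least 100, 0 of 14 kept an ASH2L promoter peak. Setd1b, which encodes SET1B, was the gene without an H3K4me3 promoter peak. It had 3 H3K4me3 peaks in its body or the 5 kb upstream, and with 2500 bp on both sides of a start site counted as promoter, 14 of 14 genes had one. The main peaks of the 13 had a median of 852 tags and 4622 bp, with the most tags at Wdr5 (1169) and the fewest at Hcfc2 (400). The partner genes thus had shorter main peaks with fewer tags in the median (3695 bp and 628 tags), and their range of 475 to 949 tags lay within that of the other genes. The ASH2L promoter peaks were those of Wdr5, on chromosome 2 from 27514814 to 27515763 with 46 tags and a score of 84.11, and of Dpy30, on chromosome 17 from 74316119 to 74316786 with 30 tags and a score of 79.17. The ASH2L peak of Dpy30 lay at downstream start sites of the gene, 7158 bp from its 5′-most coding start. Of the other genes for subunits that all of the complexes share, Ash2l and Rbbp5 had no ASH2L promoter peak, and the nearest ASH2L peaks lay 62065 and 59436 bp away.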

How the data were processed

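CUT&RUN libraries of E14 cells were trimmed with trim_galore and mapped to mm10 with Bowtie2 by the authors, who merged the duplicates, kept fragments under a size limit and called peaks with MACS. The submitters' processing notes also name SAMtools 1.5, bedtools and HOMER 4.10. Per the file headers, MACS 1.4.3 was run with a p-value cutoff of 1e-05, no control library and 1 tag kept at each position, on tags of 142 bp for H3K4me3 and 151 bp for ASH2L. These tag sizes exceed the size limit of the methods, so it is not settled which fragments the lists count. The methods give the cell number of the HA experiments for H3K4me3 too, and the labels a lower one.

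The deposited tags are raw counts in each peak over the merged library. As a ratio, the authors' fold enrichment sets the summit against a background that MACS modelled from that library. The deposited score is the negative log10 of the MACS p-value multiplied by 10. The lists also give peak positions, lengths and summits as the authors' caller wrote them.

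Peaks were assigned to GENCODE vM21 genes of GRCm38 (mm10) by an overlap of at least 1 bp with the gene body or the 5 kb upstream of it. The main promoter peak was the promoter peak with most tags. Its distances were counted from the 5′-most start of a coding transcript. Tags per kb divide tags by peak length. Percentiles are ranks among main promoter peaks of protein-coding genes. RefSeq start sites were available for 20679 of 21938 protein-coding genes. CpG counts and motifs came from 300-base RefSeq promoter sequences, credited to RefSeq on GRCm38.p6. PCR copies were not told apart by molecular identifiers, so the Poisson intervals cover counting error only.

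No test was run, because the lists hold no value for single samples and genes are not replicates. The 8 genes and the lists of other genes were chosen with earlier results of these data known. The genes named are the 8 genes in full, genes that start inside their peaks, and, of the 14 other genes, those with the highest and lowest tags, and those with an ASH2L promoter peak. Setd1b, Ash2l and Rbbp5 were named in addition after their values were seen, and Hcfc1, Kdm6a and Bod1 only to describe the list. Cell type markers were named from fixed lists. The overlap procedure was tested on simulated data. Alternatives were other regions, promoter definitions, start sites and stricter lists. Scripts ran in Python 3.11.15, with pandas 2.3.3 and numpy 2.4.6 for tables, scipy 1.17.1 for intervals and matplotlib 3.10.9 for plots.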

Additional observations from a re-analysis of the deposited data

How the results depend on the processing

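No paired analysis was possible because peaks were called on merged duplicates, and for the same reason no replicate could be left out. Of 94 alternative values for 32 results, 63 stayed within the limits set for a count or a rank and 31 moved. For ASH2L peaks in the 8 regions, every alternative took a part of the region or of the list, so the count of 0 could not change. Keeping only peaks whose fold enrichment reached their list's median left 3 of 9 H3K4me3 peaks in the regions, 2 of 8 genes with an H3K4me3 promoter peak (36.4% of all protein-coding genes), 4 of 14 other genes with one, and 7992 protein-coding genes with an H3K4me3 and 819 with an ASH2L promoter peak, in place of 15012 and 1682. A score of at least 100 left 200 protein-coding genes and 0 of the 14 other genes with an ASH2L promoter peak. Ranked among all peaks of the list in place of main promoter peaks, the median percentile of the 7 main peaks was 93.3 by tags, 90.9 by length and 34.8 by fold enrichment, against 71.5, 70.4 and 37.8. In each case fewer peaks or other peaks enter by construction. Peaks held 0.398% of the ASH2L tags and 45.7% of the H3K4me3 tags.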
